A study of Rattus norvegicus with 15 samples.

Results

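Ldha, Ldhb and Sord, the genes of the lactate dehydrogenase A and B subunits and of sorbitol dehydrogenase, were followed through retinoic acid (RA) treatment of H9c2 cells. They were taken as the rows of the deposited count table with these symbols, which gave 3 genes of 11574, and they were chosen by their RA and time changes in these counts, for which the study had singled out Ldhb and Sord, so their changes with RA and time are given as descriptions without a test. H9c2 is 1 clonal myoblast line from embryonic rat heart, and all groups are cultures of it. RNA-seq was done on 15 libraries, 3 in each of 5 groups. T0 was harvested 24 h after seeding. T7-RA and T14-RA were harvested at day 7 and day 14 in medium whose fetal bovine serum had been lowered from 10% to 1%, without RA. T7+RA and T14+RA were kept in the same low-serum medium with 1 µM all-trans RA, added daily, for 7 and 14 days. The lower serum and the culture time therefore cannot be told apart in a comparison with T0. RA was prepared in DMSO, and whether the -RA cultures received DMSO is not given in the sources used here. The study calls the replicates biological, and the labels do not say how the cultures were split, so p-values measure the spread between these libraries.

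Lactate dehydrogenase interconverts pyruvate and lactate with NADH and NAD+, and its active form is a tetramer assembled from A and B subunits in any mix. Ldha is the main form of skeletal muscle and of glycolytic cells, and Ldhb the main form of heart muscle. Sorbitol dehydrogenase oxidizes sorbitol to fructose in the polyol pathway, after aldose reductase has made sorbitol from glucose, and it also passes electrons to NAD+. RA acts through nuclear receptors that bind DNA at paired half-sites.

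The promoters are shown because the members moved apart with RA. Both sequences are the 250 bases before the start of transcription, 5′ to 3′ on the strand of the gene, from RefSeq on GRCr8, which is not the build named for the count table (Rnor_6.0). The Ldha window is chr1:106507842-106508091 on the plus strand and the Ldhb window is chr4:177177409-177177658 on the minus strand. Capitals mark the motifs that were found.
Ldha: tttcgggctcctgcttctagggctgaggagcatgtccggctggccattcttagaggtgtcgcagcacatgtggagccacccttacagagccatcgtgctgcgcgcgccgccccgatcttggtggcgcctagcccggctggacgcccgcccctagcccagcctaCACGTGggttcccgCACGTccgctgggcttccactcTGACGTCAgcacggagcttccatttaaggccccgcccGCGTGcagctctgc
Ldhb: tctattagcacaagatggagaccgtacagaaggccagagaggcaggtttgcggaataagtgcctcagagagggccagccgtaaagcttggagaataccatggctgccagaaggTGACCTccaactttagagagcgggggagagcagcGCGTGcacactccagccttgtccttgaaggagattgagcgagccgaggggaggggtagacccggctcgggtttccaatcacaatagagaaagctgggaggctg
Both strands were searched for the hypoxia response core ACGTG, its form GCGTG, the E-box CACGTG, the cyclic AMP response element TGACGTCA, the nuclear receptor half-sites AGGTCA and AGTTCA, and direct repeats of these half-sites with spacings of 1, 2 and 5 bases. The Ldha window held the E-box from 87 to 82 bases before the start, and this match overlaps ACGTG on both strands. It held ACGTG again on the reverse strand from 73 to 69, the cyclic AMP response element from 51 to 44 and GCGTG from 14 to 10. The Ldhb window held AGGTCA on the reverse strand from 137 to 132 and GCGTG from 103 to 99. Of the 33469 promoter windows of this length, 16.57% held ACGTG, 25.89% GCGTG, 5.593% the E-box, 1.587% the cyclic AMP response element, 14.06% AGGTCA and 12.22% AGTTCA. Direct repeats were in 0.1942%, 0.1374% and 0.3257% of windows at spacings of 1, 2 and 5, and in neither of these windows. The corresponding Sord window, on chromosome 3, held none of the motifs and is not printed because it lies inside the annotated span of the gene. The GC content of the windows was 66.4% for Ldha, 56.4% for Ldhb and 65.2% for Sord, where the median window had 51.2%. A match is a description of the letters and nothing about a factor was drawn from it.

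Library depth was 508397 to 1030820 counts, and the members took 259 to 804 (Ldha), 75 to 1064 (Ldhb) and 50 to 769 (Sord) counts per library, so none of them was near the low-count limit. Myotube markers, 11 of 12 measured, summed to 177 to 212 CPM at T0, 2875 to 3465 in T7-RA, 11716 to 12278 in T14-RA, 1498 to 1810 in T7+RA and 5142 to 5968 in T14+RA. Of these markers 7 of 11 fell for RA, as did 3.07% of all genes, and 11 of 11 rose for T14, as did 8.47% of all genes (edgeR adjusted p under 0.001). The cardiomyocyte markers Nkx2-5, Tbx5, Myh6, Tnni3, Nppa and Nppb are not among the measured genes, and the 2 of 8 that are summed to 11 to 38.4 CPM, so the defining markers of heart muscle cells were not analysed here. Fibroblast markers (4 of 6 measured) summed to 18448 to 37564 CPM, nearly all of it Col1a1, with group means of 20184 to 29893 CPM. The highest group means of Thy1, Dcn and Lum were 290, 120 and 28.5 CPM, so the sum is in effect the level of Col1a1. Of the 4 markers, Dcn rose and Lum and Thy1 fell for RA, and Dcn and Lum rose and Col1a1 fell for T14. The endothelial marker measured (1 of 5) had 0 to 6.29 CPM. Myotube and fibroblast marker levels thus differed between the groups compared for the members, and their part in the members' values was not tested. In such bulk samples fewer cells of a type and less RNA per cell cannot be told apart.

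Ldhb, the heart-type subunit, was several-fold higher with RA than without it at both days. Levels are given as CPM, counts scaled by TMM factors to a common library size, which removes composition differences between libraries. In T0 the 3 libraries had 141, 201 and 157 CPM, in T7-RA 179, 194 and 157, and at day 14 without RA 223, 218 and 230.3. With RA they had 525, 541 and 550.2 CPM at day 7, and 1026, 1146 and 963 at day 14. Every RA library lay above every library without RA, and T0 and T7-RA overlapped. The mean level was 166 ± 31.0 CPM for T0 (SD, n = 3). Without RA it was 176 ± 18.5 CPM at day 7 and 224 ± 6.23 CPM at day 14, against 539 ± 13.0 and 1045 ± 92.9 CPM with RA. The difference between the +RA and -RA cultures was 1.61 on the log2 scale (SE 0.116) at day 7, or 3.04-fold, and 2.22 (SE 0.111) at day 14, or 4.67-fold. Averaged over both days it was 1.93 (SE 0.0945), and the T7 and T14 terms of the same additive model, which share T0, were -0.09 (SE 0.144) and 0.62 (SE 0.143). These terms also draw on the RA cultures. Without RA the difference of T7-RA from T0 was 0.10 (SE 0.135) and of T14-RA from T7-RA 0.34 (SE 0.126). Among all genes, the RA libraries lay wholly above the -RA libraries in 11.8% at day 7, 13.4% at day 14 and 4.95% at both days, and in 0.907% T7+RA lay above T14-RA and T14+RA above T7+RA, as for Ldhb. As Ldhb was chosen for its pattern, these shares are descriptions.

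Sord, which completes the polyol pathway, was also higher with RA at both days, and its T7-RA libraries lay above those of T0. Its libraries had 159, 128 and 105 CPM at T0, 187, 188 and 198 in T7-RA, and 263, 228 and 225 in T14-RA. With RA they had 418, 368 and 423 CPM at day 7 and 742, 787 and 656 at day 14. The 5 groups did not overlap, in the order T0, then T7-RA and T14-RA, then T7+RA and T14+RA, which 11 genes of the table (0.095%) showed. This order is that of Sord itself, a gene chosen for its pattern, so the share is a description and not a measure of how unusual Sord is. The mean levels were 130.3 ± 27.0, 191 ± 5.68, 239 ± 21.0, 403 ± 30.5 and 728 ± 66.6 CPM (SD, n = 3). The RA difference was 1.08 on the log2 scale (SE 0.119) at day 7, or 2.11-fold, and 1.60 (SE 0.113) at day 14, or 3.03-fold. Without RA the difference of T7-RA from T0 was 0.52 (SE 0.140) and of T14-RA from T7-RA 0.33 (SE 0.126). The T14 term of the additive model, which also draws on the RA cultures, was 1.00 (SE 0.144). In the whole table T7-RA lay wholly above T0 in 17.5% of genes, and T14-RA above T7-RA in 13.2%.

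Ldha, the glycolytic subunit, was at similar levels with and without RA at day 14 and lower with RA at day 7. At T0 it had 491, 728 and 543 CPM, in T7-RA 638, 641 and 589.7, and at day 14 without RA 769.9, 739 and 687. With RA it had 536, 469 and 531 CPM at day 7, and 776, 797 and 745 at day 14. T7+RA lay below T7-RA without overlap, which 12.6% of all genes showed, while T14+RA overlapped T14-RA and T0 overlapped T7-RA, T14-RA and T7+RA. The means were 587 ± 125, 623 ± 28.9, 732 ± 41.6, 512 ± 37.7 and 772 ± 26.0 CPM (SD, n = 3). The RA difference was -0.29 on the log2 scale (SE 0.106) at day 7 and 0.08 (SE 0.103) at day 14, and the 95% interval of the latter ran from -0.13 to 0.28. The T7 and T14 terms were 0.00 (SE 0.111) and 0.41 (SE 0.113). Without RA the difference of T7-RA from T0 was 0.09 (SE 0.106) and of T14-RA from T7-RA 0.23 (SE 0.104). One T0 library, replicate 2, held the highest T0 level of both Ldha and Ldhb, and without it the T7 and T14 terms were 0.19 and 0.61 for Ldha and 0.07 and 0.79 for Ldhb. The T14 term of Sord without T0 replicate 1 was 1.20. By mean level the order of the groups was T7+RA, T0, T7-RA, T14-RA and T14+RA, and the neighbours in that order overlapped except T7-RA and T14-RA.

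**Figure D1:**
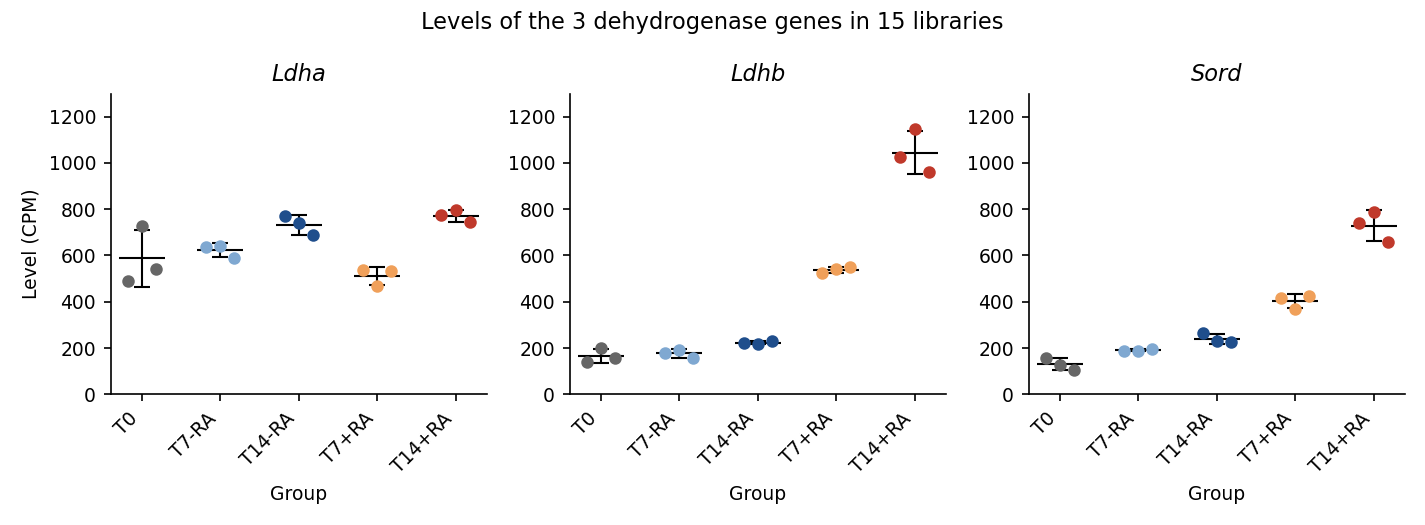
Levels of Ldha, Ldhb and Sord in CPM (vertical axis) for the 5 groups (horizontal axis), where points are libraries in replicate order and bars the mean ± SD of 3. Ldhb reaches 963 to 1146 CPM and Sord 656 to 787 CPM in T14+RA, while Ldha stays between 469 and 797 CPM in all 15 libraries.

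The RA difference at day 14 was also set against that at day 7. It comes from the same counts as the choice of the 3 genes, so it is given as a description without a test. The excess at day 14 was 0.62 on the log2 scale for Ldhb (SE 0.162), 0.53 for Sord (SE 0.165) and 0.36 for Ldha (SE 0.147). The intervals of the excess ran from 0.29 to 0.94 for Ldhb, from 0.20 to 0.86 for Sord and from 0.07 to 0.66 for Ldha. They allow neither for the choice of the genes nor for the number of genes fitted, so their bounds are not read as a test. The intervals overlap widely, and the 3 genes were not tested against each other. Over the 15 fits that left out 1 library, the Ldhb value stayed between 0.54 and 0.68.

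The Ldhb to Ldha ratio does not depend on how libraries are scaled. In T0 the count ratios of the 3 libraries were 0.287, 0.276 and 0.290, in T7-RA 0.280, 0.302 and 0.266, and at day 14 without RA 0.290, 0.295 and 0.335. With RA they were 0.979, 1.15 and 1.04 at day 7 and 1.32, 1.44 and 1.29 at day 14. Every RA library thus had a ratio above every library without RA, and T14+RA lay above T7+RA. The mean was 0.284 ± 0.00725 at T0, 0.283 ± 0.0181 in T7-RA, 0.307 ± 0.0246 in T14-RA, 1.06 ± 0.0898 in T7+RA, and 1.35 ± 0.0768 for T14+RA (SD, n = 3). On the log2 scale RA moved the ratio by 1.90 (SE 0.0878), or 3.73-fold, at day 7 and by 2.14 (SE 0.0805), or 4.41-fold, at day 14. The change at day 14 exceeded that at day 7 by 0.24 (SE 0.119), for which no test was made. Without RA the ratio moved by -0.01 (SE 0.0571) from T0 to T7-RA and by 0.11 (SE 0.0689) from T0 to T14-RA. The T7-RA ratios overlapped those of T0, and the T14-RA ratios all lay above those of T0, with 0.290 in the nearest library of each.

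Read as a share, Ldhb was 21.0% to 25.1% of the Ldha and Ldhb counts in the 9 libraries without RA, 49.5% to 53.6% in T7+RA and 56.4% to 59.0% in T14+RA. The exact 95% binomial intervals of single libraries, which cover counting error only, ran from 17.6% to 29.0% at the outside without RA and from 45.8% to 61.7% with RA, and these ranges did not overlap. Ldhb and Ldha together had 754 ± 155 CPM at T0, 956 ± 37.8 in T14-RA and 1817 ± 118 in T14+RA (SD, n = 3), of which Ldha was 772 CPM. Per base of transcript, taking the length column of the table as the longest transcript in bases (1600 for Ldha, 1340 for Ldhb and 2137 for Sord), the ratio was 0.339, 0.338, 0.366, 1.26 and 1.61 in the order T0, then T7-RA and T14-RA, then T7+RA and T14+RA. Sord relative to Ldhb in counts was 0.810 ± 0.275 at T0, 1.09 ± 0.149 in T7-RA, 1.07 ± 0.101 in T14-RA, 0.749 ± 0.0609 in T7+RA and 0.697 ± 0.0223 for T14+RA (SD, n = 3), and at each day the RA libraries lay below those without RA.

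**Figure D2:**
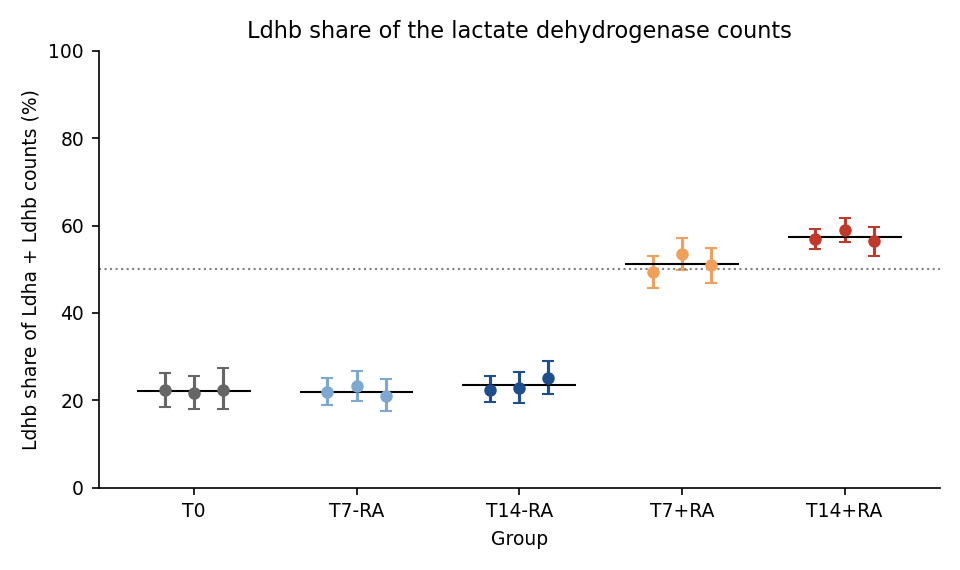
Ldhb as a percentage of Ldha plus Ldhb counts (vertical axis) in each library by group (horizontal axis), with exact 95% intervals, group means as horizontal lines and a dotted line at 50%. The 9 libraries without RA sit between 21.0% and 25.1%, and the 6 with RA between 49.5% and 59.0%.

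In TPM, counts per length scaled to a common sum and computed with these lengths to compare genes, Ldha was at 740 ± 120 in T0 and 958 ± 15.3 in T14+RA, Ldhb at 250.2 ± 34.6 and 1544 ± 64.2 and Sord at 124 ± 27.3 and 675 ± 33.7 (SD, n = 3). Among the genes of the table Ldhb moved from the percentiles 93.1 to 95.1 at T0 to 99.4 to 99.5 in T14+RA, and Sord from 83.0 to 89.3 to 98.1 to 98.3, while Ldha stayed between 98.06 and 98.97. RGD1562690, a processed pseudogene similar to Ldha on 8q21, had 3.60 to 8.27 counts per 100 Ldha counts, and whether those are Ldha reads cannot be seen from the table. With its counts added to Ldha the ratio was 0.271, 0.267, 0.293, 0.994 and 1.27 in the same group order.

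Genes around these enzymes were taken from 6 lists of 88 genes, of which 68 were measured. The RA term of the additive model called 9 of 68 (13.2%) at an adjusted p under 0.001, 5 up and 4 down, where 6.39% of all genes were called, 3.33% up and 3.07% down. The T14 term called 20 (29.4%), 16 up and 4 down, where 17.3% of all genes were called, 8.47% up and 8.85% down. The T7 term called 5 (7.35%), 4 up and 1 down, where 8.73% of all genes were called, 4.29% up and 4.44% down. The difference of the RA change between days called 3 (4.41%) at an adjusted p under 0.05, 2 with a larger value at day 14 and 1 with a smaller one, where 86 of 11574 genes (0.743%) were called, 0.285% larger and 0.458% smaller. The median RA change of the 68 was 0.11 on the log2 scale, with -0.01 for all genes, and the median T14 change 0.47, with 0.05 for all genes. Limma on quantile-normalized values ended the RA calls of Hk2, Pgk1, Eno3, Pdk3, Pdk4 and Gpt2 (adjusted p = 0.00107 to 0.0489), which are described below with their edgeR values. It also ended the T14 calls of Eno1, Pkm, Akr1b8, Slc25a11, Slc25a12 and Mycn (adjusted p = 0.00183 to 0.182) and the T7 call of Akr1b1 (adjusted p = 0.00189). Gapdh, Aldoc and Slc16a3 are among the listed genes not analysed here.

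In glycolysis, which makes the pyruvate that lactate dehydrogenase uses, 2 of 20 measured genes rose and 1 fell for RA, and 7 rose and 2 fell for T14. The median change was 0.19 for RA and 0.56 for T14. Hk2, the hexokinase of the first step, rose for RA by 0.99 (SE 0.110, edgeR adjusted p = 5.78e-10), from 117 ± 21.8 to 185 ± 8.78 CPM at day 7 and from 174 ± 43.0 to 424 ± 37.0 CPM at day 14. Pgk1, phosphoglycerate kinase, rose by 0.39 (adjusted p = 0.00013). Eno3, the muscle enolase, fell by 0.83 (adjusted p = 6.82e-09) for RA and rose by 2.01 for T14 (adjusted p = 1.56e-16), whereas Eno1, the general enolase, fell by 0.68 (adjusted p = 6.8e-08) for T14. Pgam2, the muscle phosphoglycerate mutase, had 0 to 2 counts at T0 and was at least 14.7-fold higher in T14-RA, at 78.6 ± 8.65 CPM, against 17.4 ± 7.87 CPM in T14+RA. The Pgam2 RA difference was lower at day 14 than at day 7 (-2.93, SE 0.661, adjusted p = 0.00966), while that of Slc2a4, the insulin-responsive glucose transporter, was higher (1.53, SE 0.395, adjusted p = 0.0391). Slc2a4 had a lower mean with RA at day 7, at 18.6 ± 4.90 against 29.0 ± 7.65 CPM, and a higher one at day 14, at 65.3 ± 4.77 against 34.9 ± 8.14 CPM. Pkm, pyruvate kinase, fell by 0.43 for T14 (adjusted p = 0.000377), a call lost with library size scaling alone (adjusted p = 0.00756), with at least 10 counts in every library (adjusted p = 0.00152), with limma on quantile-normalized values (adjusted p = 0.182) and on leaving out any one of 5 libraries (T0 replicate 1 or 2 or any T14-RA replicate; adjusted p up to 0.00475). The Pgk1 call was lost without T14-RA replicate 1 or 3 (adjusted p = 0.00112 and 0.00105). The Slc2a4 difference was lost on leaving out any one of 9 libraries of the 4 later groups (adjusted p up to 0.197), and that of Pgam2 without T14+RA replicate 1, T7-RA replicate 1 or T7+RA replicate 3 (adjusted p up to 0.431). Limma on quantile-normalized values also ended both (adjusted p = 0.206 and 0.191), limma-voom ended that of Slc2a4 (adjusted p = 0.0546), and DESeq2 gave neither an adjusted p. Myotube marker sums were lower with RA at each day, as given above, and their part in the values of Eno3 and Pgam2 was not tested.

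In lactate and pyruvate handling, 2 of 21 measured genes rose and 1 fell for RA, and 5 rose and none fell for T14 (0 were lower at an unadjusted p under 0.05 in edgeR). Pdk3, a kinase that switches off pyruvate dehydrogenase, rose by 1.27 for RA (SE 0.199, edgeR adjusted p = 3.78e-06), and its RA difference was larger at day 14 (1.39, SE 0.365, adjusted p = 0.0461). Its level was 25.4 ± 11.7 and 32.8 ± 4.09 CPM without and with RA at day 7, and 37.3 ± 6.02 and 128 ± 16.3 CPM at day 14. Pdk4, a kinase of the same family, had 0 counts in every library of the other 4 groups and 11, 15 and 21 counts in T14+RA, at least 4.56-fold above T14-RA by the floor of 3 counts per library, and DESeq2 did not call it (adjusted p = 0.67). Gpt2, mitochondrial alanine aminotransferase, fell by 0.58 (adjusted p = 0.000109), a call lost without T14-RA replicate 1 or T14+RA replicate 1 (adjusted p = 0.00209 and 0.00324). The Pdk3 difference was lost on leaving out any one of 11 libraries of the 4 later groups (adjusted p up to 0.309). It was also lost with DESeq2 (adjusted p = 0.0874), limma-voom (adjusted p = 0.157) and limma on quantile-normalized values (adjusted p = 0.43). For T14, Slc16a1, the lactate and pyruvate carrier MCT1, rose by 1.51 (adjusted p = 1.74e-07), from 33.8 ± 5.90 CPM at T0 to 97.0 ± 15.0 CPM in T14-RA, and Pdhb, a pyruvate dehydrogenase subunit, rose by 1.10 (adjusted p = 1.65e-05), a call lost without T0 replicate 1 (adjusted p = 0.00101).

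In the polyol and fructose list, in which Sord works, no measured gene of 7 rose and 1 fell for RA (in edgeR 0 were higher and 2 lower at an unadjusted p under 0.05), and limma-voom and DESeq2 also called 1. Akr1b8, an aldo-keto reductase, fell by 0.70 for RA (SE 0.0845, edgeR adjusted p = 1.66e-09) and by 0.57 for T14 (adjusted p = 1.91e-05). It went from 444 ± 39.2 to 275 ± 8.66 CPM with RA at day 7 and from 317 ± 27.7 to 192 ± 6.37 CPM at day 14. Akr1b1, aldose reductase, which feeds Sord, rose by 0.57 for T7 (adjusted p = 3.24e-05) and was named after its values were seen. Its levels were 482 ± 65.5 CPM at T0, 691 ± 21.7 in T7-RA, 671 ± 32.4 in T14-RA, 604 ± 6.89 in T7+RA and 503 ± 42.3 for T14+RA, an order unlike that of Sord. The T7 call was lost without T0 replicate 3 (adjusted p = 0.0012). Near-copies in the Akr1b family share sequence, and how reads were divided between them cannot be seen from the counts.

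Of the NADH shuttles, which move the electrons of cytosolic NADH into mitochondria, 1 of 9 measured genes rose for RA and 4 rose for T14. Got1, cytosolic aspartate aminotransferase, rose by 0.75 for RA (SE 0.0911, edgeR adjusted p = 1.97e-09), from 148 ± 6.69 to 262 ± 12.3 CPM at day 7 and from 172 ± 20.7 to 279 ± 29.3 CPM at day 14. The mitochondrial carriers Slc25a11 and Slc25a12 rose for T14 by 1.08 (adjusted p = 5.61e-05) and 1.03 (adjusted p = 0.000391), calls lost without T0 replicate 1 for Slc25a11 (adjusted p = 0.00519) and without T0 replicate 2 or 3 or T14-RA replicate 1 or 2 for Slc25a12 (adjusted p up to 0.00384), which DESeq2 also did not call (adjusted p = 0.00162). The other lactate dehydrogenase genes measured, Ldhd and Uevld, were low, at 6.64 to 11.4 and 4.71 to 10.6 CPM over the group means, and neither was called in any term by edgeR, limma-voom or DESeq2, or passed an unadjusted p of 0.05 in edgeR. Of 9 measured regulators, Mycn, a growth-promoting transcription factor, fell for RA (adjusted p = 1.14e-06) and T14 (adjusted p = 5.73e-05), from 40.9 ± 12.5 CPM at T0 to 14.6 ± 4.00 in T14-RA, and had at most 3 counts in each T14+RA library. The T14 call of Mycn was lost without T0 replicate 1 (adjusted p = 0.00703).

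**Figure D3:**
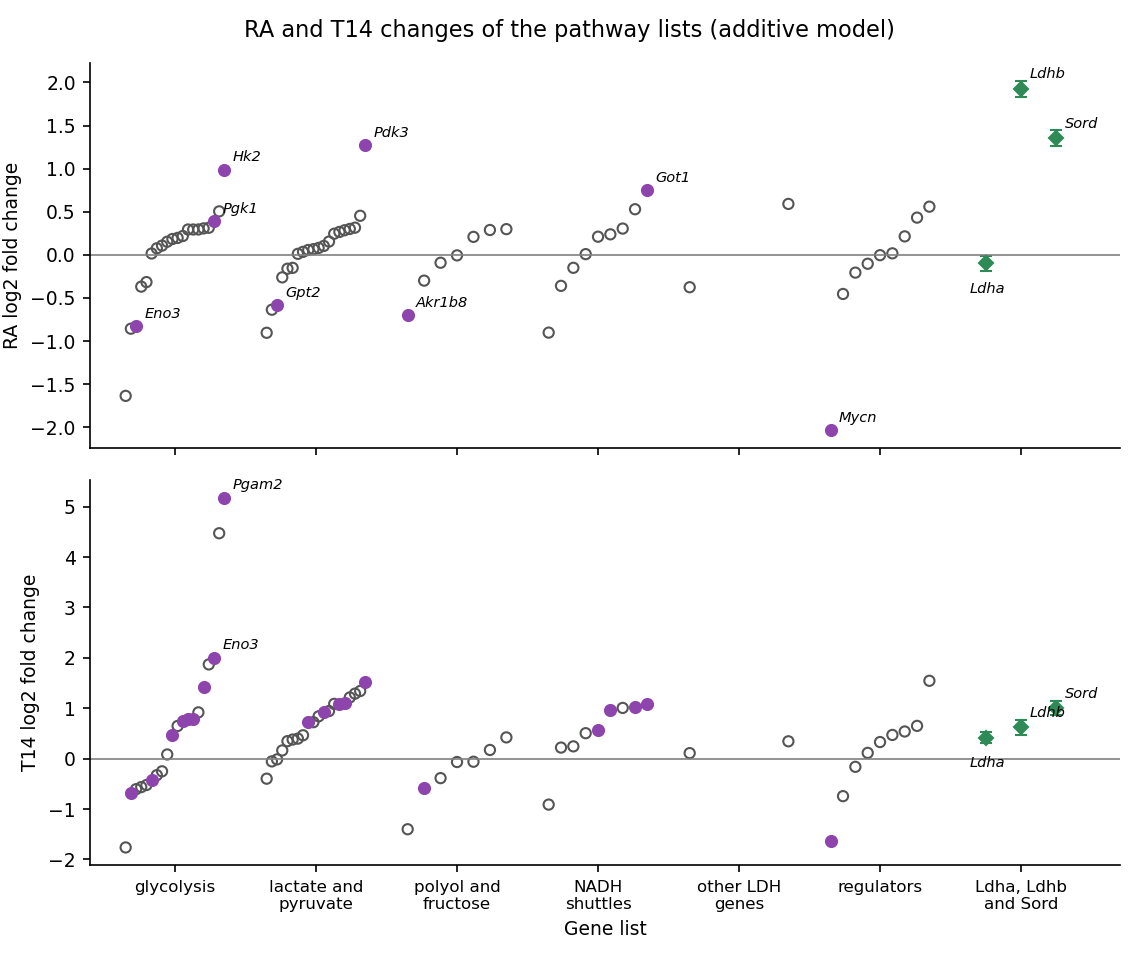
Additive-model log2 fold change for RA (upper) and T14 (lower) of the measured genes in 6 lists (horizontal axis), with called genes filled, others open, and Ldha, Ldhb and Sord as diamonds with SE, for which no call was made. Ldhb at 1.93 and Sord at 1.35 lie above the plotted list genes for RA; Pdk4, also called for RA, is not plotted because 4 groups are at 0, and the fitted values of Pgam2 for T14 and Mycn for RA depend on groups at the floor.

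The genes named as most similar in profile were found by the root mean square distance of the 5 group means of log2 CPM, centred on each gene, among 6390 genes with at least 300 counts. For Ldhb they were Rfk (riboflavin kinase, 0.256), Synpo (an actin-associated protein, 0.262), Lipa (lysosomal acid lipase, 0.266), Sord (0.266) and Habp4 (0.274). For Sord they included Vegfc (a lymphatic growth factor, 0.117), Hk2 (0.205), Rfk (0.216) and Lipa (0.252), and Ldhb was the 10th. Ldha had closer neighbours, Arfrp1 (0.0193), Rbx1 (0.0278), Ap4b1 (0.0434), Poll (0.0485) and Chmp4bl1 (0.0488), and stood 0.997 from Ldhb and 0.808 from Sord. The 5 points share libraries and depth, so these distances are descriptions. The names depend on the measure: with a prior count of 0.5 in the log2 CPM, 4 of the genes named for Ldha, 4 for Ldhb and 3 for Sord were again among the nearest 5, and with Pearson's correlation over the 15 libraries 0 were for each.

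**Figure D4:**
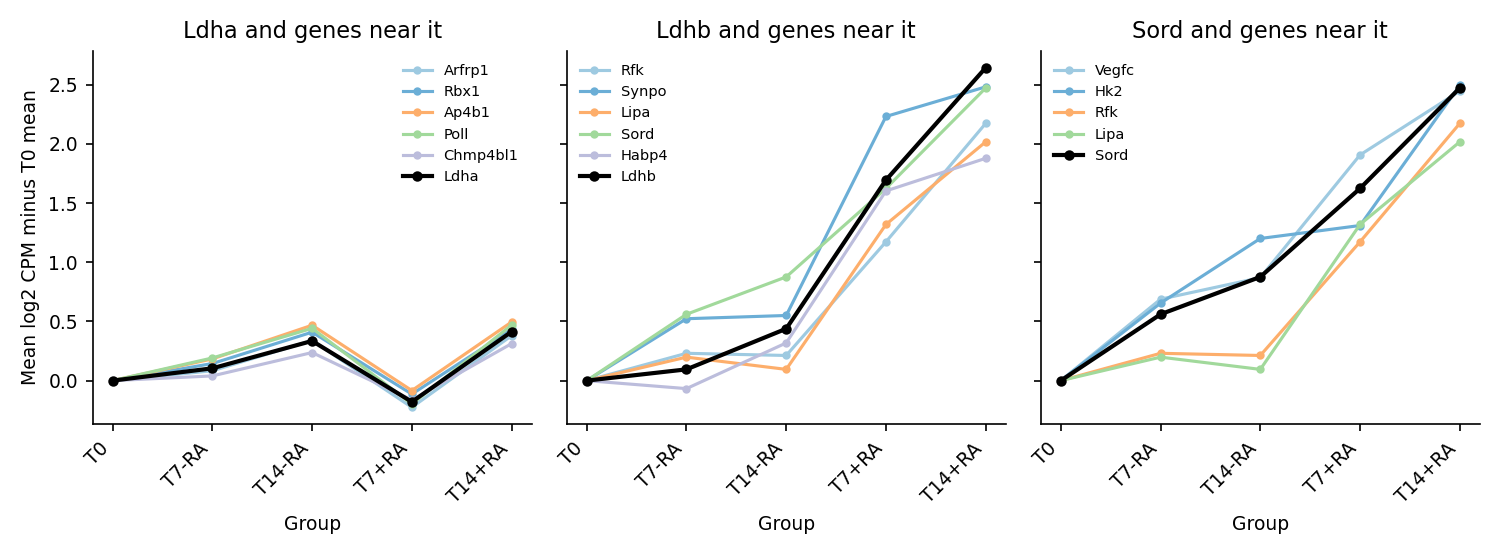
Mean log2 CPM of each group minus the T0 mean (vertical axis) over the 5 groups (horizontal axis) for Ldha, Ldhb and Sord in black and the genes named as nearest to them in color. Ldha and its neighbours stay within 0.5 of T0, while Ldhb and Sord end near 2.5 above it in T14+RA.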

How the data were processed

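The authors trimmed the reads on Galaxy, used HISAT2 to map them and featureCounts to count them, and left out genes whose counts over 15 libraries did not exceed 20. The deposited table holds these raw counts for 11574 genes (smallest sum 21). The submitters' processing notes name Rnor 6.0. Tool versions, annotation release and strand setting are not given in the sources used here, so overlapping genes on opposite strands may share reads. Groups came from the sample labels.

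The counts were fitted in edgeR 4.0.16 (R 4.3.3; TMM, robust quasi-likelihood, Benjamini-Hochberg over all genes). Calls in an additive model with T7, T14 and RA terms needed an adjusted p below 0.001, as in the study. Group means yielded RA changes per day and their difference, called at 0.05. The study used limma, which was run as an alternative (3.58.1), with DESeq2 1.42.0, other scalings, filters and each library left out. CPM used TMM sizes. TPM was computed from counts and the length column, which the file does not define. Intervals are 95%. Those of log2 changes come from the edgeR fit and include the spread between libraries, while binomial intervals of shares and floors (3 counts per library) cover counting error only. The smallest chi-square between replicates was 1.07 per gene (chi-square p = 2.31e-07), and all 15 libraries were kept. The T0 pairs had 2.06 to 3.09 per gene, the latter the largest of all pairs, so the replicates of T0 were not closely alike. The fits were tested on simulated data. The members and lists were chosen with earlier results of these data known, so p-values fitted for the members, also for the difference between days, are not used. Named genes were the members, list genes called for RA or the difference, the 2 largest called T14 rises and falls per list, and the 5 nearest profiles per member (prior count 2). A result for 1 gene is left out of this text.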

Additional observations from a re-analysis of the deposited data

Results flagged for a closer look

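The contrast of the RA difference at day 14 with that at day 7 passed an adjusted p of 0.05 in edgeR for 3 of 68 measured list genes (4.41%), where 0.743% of all genes were called, and none of the 3 calls held under every setting. For Ldhb the excess at day 14 was 0.62 on the log2 scale, beside 0.53 for Sord and 0.36 for Ldha; these values come from the counts by which the 3 genes were chosen and are a description without a test. Slc2a4 had an excess of 1.53, lost with limma-voom (adjusted p = 0.0546), limma on quantile-normalized values (adjusted p = 0.206) and in 9 of 15 fits that left out 1 library, and DESeq2 gave it no adjusted p. Its mean level was lower with RA at day 7 and higher with RA at day 14. Pdk3 had an excess of 1.39, lost with DESeq2 (adjusted p = 0.0874), limma-voom (adjusted p = 0.157), the quantile fit (adjusted p = 0.43) and in 11 such fits. Pgam2 was lower at day 14 (-2.93), lost with the quantile fit (adjusted p = 0.191) and in 3 such fits, and DESeq2 gave it no adjusted p. Its counts were 3 to 10 per library at day 7.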

How the results depend on the processing

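Under 8 other settings the RA changes of Ldhb and Sord were 1.86 to 1.94 and 1.30 to 1.36 on the log2 scale. Limma on quantile-normalized log2(count + 1) called fewer genes, 310 for RA, 297 for T7, 1095 for T14 and 22 for the difference between days, where edgeR called 740, 1010, 2004 and 86. In the 6 lists it called 3, 0, 11 and 1 gene in the same order, where edgeR called 9, 5, 20 and 3, and DESeq2 called 0 for the difference, with no adjusted p for Slc2a4 and Pgam2. The filter of at least 10 counts in every library also left 0, because it removed Slc2a4, Pdk3 and Pgam2 before the test, so it says nothing about those calls. For the Ldhb difference, a description without a test, the quantile fit gave 0.54 and limma-voom 0.61. The quantile fit gave 0.18, 0.60 and 0.26 for the Ldha T7 term, T14 term and T7-RA against T0. Library size scaling alone moved the median of all genes to 0.13 for T7 and 0.15 for T14, with 648 up and 358 down for T7 and 1221 up and 844 down for T14, against 496 and 514, and 980 and 1024, in the TMM fit. The Ldhb to Ldha ratio per length was 0.339, 0.338, 0.366, 1.26 and 1.61 in the order T0, then T7-RA and T14-RA, then T7+RA and T14+RA, and with the pseudogene counts added to Ldha, chosen after seeing the data, 0.271 at T0 and 1.27 in T14+RA. The cause of these changes was not tested.

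Without 1 library the calls were 625 to 838 for RA, 655 to 1061 for T7 (lowest without T0 replicate 1), 1550 to 2028 for T14 and 51 to 129 for the difference, which was under 60 without T14-RA replicate 1, T7+RA replicate 2 or 3, or T14+RA replicate 1. In the lists they were 8 to 10, 2 to 6, 14 to 21 and 0 to 3. The Ldhb difference was 0.54 to 0.68, that of Ldha 0.30 to 0.40 and of Sord 0.46 to 0.59. The T7 terms were -0.11 to 0.19 for Ldha, -0.20 to 0.071 for Ldhb and 0.25 to 0.56 for Sord, and the T14 terms 0.31 to 0.61, 0.51 to 0.79 and 0.89 to 1.20. T7-RA against T0 gave -0.023 to 0.28, -0.016 to 0.26 and 0.40 to 0.72. The replicate numbers share no batch in the labels. The deviations of same-numbered libraries had a mean r of 0.018 (from -0.0352 to 0.0991 over 30 pairs), and those of different number -0.0090 (60 pairs). With the replicate block 797, 1083, 2088 and 118 genes were called, against 740, 1010, 2004 and 86 without it, and the Ldhb difference was 0.61. Whether the numbers mark a pairing was not tested.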
